A study of Mus musculus with 10 samples.

Results

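Complement transcripts were examined in mouse liver, across the 35 complement genes listed by name for the classical, lectin, alternative and terminal pathways, their regulators and their receptors. All 35 were found among the 23847 loci of the deposited table. The liver came from mice with a floxed Arid1a allele of a C57/B6 and 129 mix, 90 days after birth, and was frozen 40 h after partial hepatectomy, the removal of part of the liver that sets off its regeneration. Mice of both groups were Arid1a Fl/Fl and both groups had undergone the operation. The KO mice also carried Alb-cre, a Cre recombinase driven by the albumin promoter, which is active in hepatocytes. Cells in which that promoter has stayed silent keep Arid1a intact and can still contribute its transcripts. Their part in the Arid1a level of KO livers was not tested. There were 3 WT and 3 KO libraries. Another 4 libraries, of livers taken ahead of the operation, were not analysed here, so nothing is said of the response to it. Nothing in the labels ties each library to its own mouse, and p-values then measure only the spread between these 6 libraries, which may be technical.

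Complement is a cascade of plasma proteins, most of them made by hepatocytes, that marks microbes and damaged cells and can end in a membrane pore. The classical route starts with C1 on antibody and the lectin route with collectins or ficolins on sugars. Both cleave C4 and C2 to build an enzyme that cleaves C3. The alternative route uses factor B in place of C2, and all routes share C3, C5 and the terminal components C6 to C9. In the regenerating liver, C3 and C5 fragments are known to take part in priming hepatocytes.

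FPKM, a level scaled to transcript length and to the mapped fragments of the library, summed to between 409142 and 495209 per library, and between 14874 and 15287 loci lay above the floor of 0.001. Relative depth, read from the spacing of low values, ran from 0.829 in KO replicate 3 to 1.2 in WT replicates 2 and 3 taking WT replicate 1 as 1. The absolute depth is unknown. Arid1a was 8.54 ± 0.121 FPKM across WT and 5.38 ± 0.882 in KO (SD, n = 3 each), and every KO library lay below every WT library. Albumin, the leading hepatocyte transcript, was between 16226 and 29437 FPKM in every library. KO replicate 2 stood apart for complement, as the lowest of the 6 libraries in 20 of the 30 complement genes tested (66.7%), against 12.4% of all genes tested. For those 30 genes, log2 differences that it moves by over 1.5 times are given with and without it. For single genes outside them, log2 differences are given with all libraries only, and KO replicate 2 may weigh on them.

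C4b and C4a had the largest differences of the complement genes tested, and both were lower in KO livers. Some other complement genes were lower by less, as given below. Of the 35 genes, 30 had a mean of at least 1 FPKM over the 6 libraries and were tested together with all other such genes. The test was limma on log2(FPKM + 1), two-sided, with Benjamini-Hochberg adjustment over 10956 genes, and genes with an adjusted p below 0.05 are termed called. C4b and C4a were called lower in KO and no complement gene was called higher, beside 0.119% of all genes tested called in either direction, 0.1% lower and 0.0183% higher. The other 28 had log2 differences (KO minus WT) from -1.004 to 0.66 and adjusted p from 0.262 to 0.987. Their 95% intervals all lay above -2, and for 20 of them above -1. A p that misses the threshold leaves room for a smaller change, and the intervals give its bounds.

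The other 28 tested genes, with C4b and C4a left out, had a median log2 difference of -0.16, against 0.15 for all genes tested. Of the 28, 18 were below 0 (64.3%), against 30.3% of all genes. At an unadjusted p under 0.05, 3 of the 28 were lower (Mbl1, Colec11 and C8a) and 0 higher in KO, where 15.2% of all genes had such a p, 3.99% lower and 11.2% higher. The 2 groups of libraries had no overlap for 7 of the 28, 6 of them lower and 1 higher in KO, beside 22.1% of all genes, of which 5.44% of all were lower and 16.7% higher. KO replicate 2 weighs on these values. Without that library 14 of the 28 were below 0 and 14 above, against 35.04% of all genes below 0. The median of the 28 relative to all genes was -0.31 with all libraries and -0.12 without KO replicate 2, and at an unadjusted p under 0.05 limma then gave 3 lower and 2 higher.

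The scaling of the libraries bears on the split of all genes. After median-of-ratios rescaling all 13 calls were lower and 0 higher, as against 11 and 2, and 22 of the 28 complement genes other than C4 were below 0 (78.6%), against 47.2% of all genes. At an unadjusted p under 0.05 that scaling gave 594 genes higher and 724 lower, as against 1231 and 437. The median of the 28 relative to all genes was then -0.33. Without KO replicate 2 the balance of calls was the opposite, with 197 genes called higher and 45 lower.

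**Figure D1:**
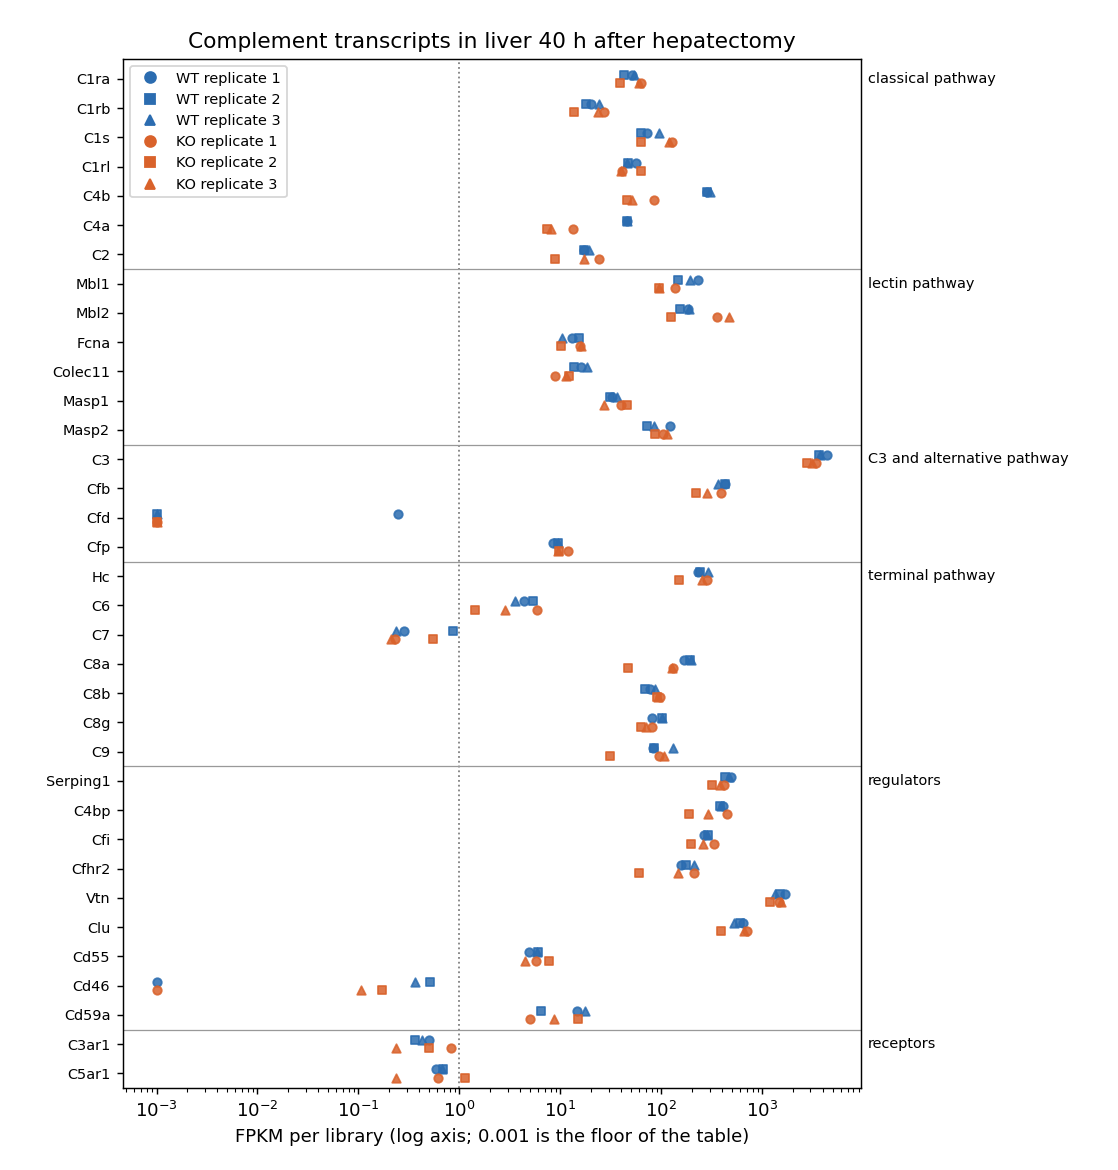
FPKM of the 35 complement genes in each of the 6 libraries, on a log axis, with WT in blue, KO in orange and a marker shape for each replicate number. The dotted line is 1 FPKM. The KO points of C4b and C4a lie well to the left of their WT points, and C3 is the most abundant member in all 6 libraries.

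**Figure D2:**
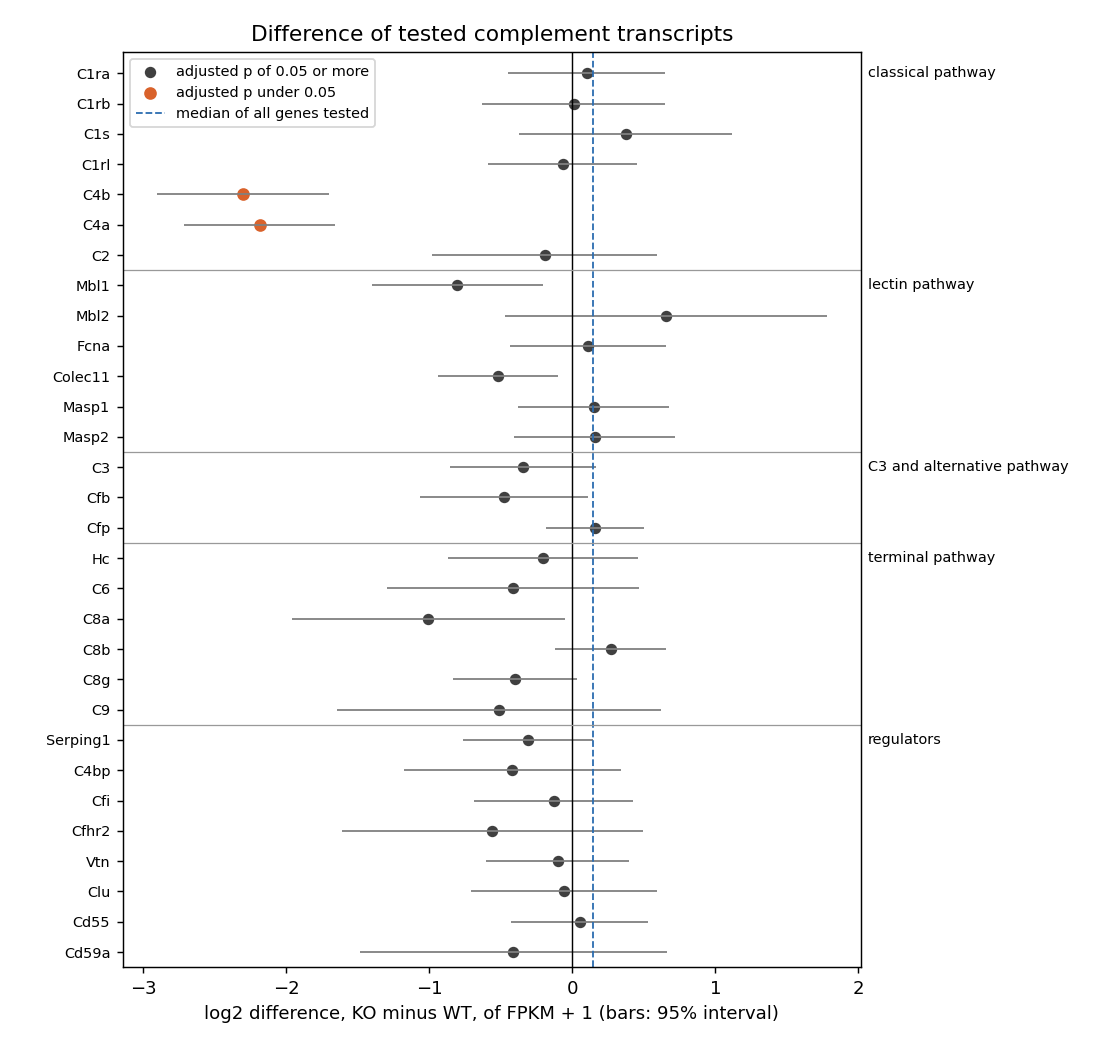
Log2 difference (KO minus WT) of the 30 tested complement genes with 95% intervals, grouped by role. The dashed line is the median of all genes tested, 0.15. C4b at -2.30 and C4a at -2.18 are the only members with an adjusted p under 0.05.

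C4 is the thioester protein that binds covalently to a target surface after cleavage and carries the C2 fragment of the C3-cleaving enzyme. C4b encodes it. C4b (chromosome 17, 34728381 to 34743897, mm10) was 284, 286 and 303 FPKM in WT replicates 1 to 3 and 84.0, 45.4 and 51.5 in KO replicates 1 to 3. The WT libraries lay close together, and the highest KO library was far below the lowest WT library. The mean fell from 291 ± 10.4 to 60.3 ± 20.7 FPKM (SD, n = 3 each), so that KO held 20.7% of the WT level, a log2 difference of -2.30 (SE 0.25, 95% interval -2.90 to -1.70, limma adjusted p = 0.0435). Among all loci, C4b went from rank 208, 162 and 168 by level in WT to rank 643, 1198 and 1031 in KO. In bulk tissue, fewer cells that make a transcript and less transcript per cell cannot be told apart.

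C4a, the sex-limited protein gene, is the duplicate of C4b and lies beside it (chromosome 17, 34809092 to 34823454). RefSeq GRCm38.p6 lists it as a transcribed pseudogene. It was 45.8, 45.4 and 45.6 FPKM across WT and 13.2, 7.31 and 8.10 in KO, and the groups did not overlap. The mean went from 45.6 ± 0.175 to 9.55 ± 3.21 (log2 difference -2.18, SE 0.22, adjusted p = 0.0386), which is 20.9% of the WT level. In both genes KO replicate 1 kept the most transcript and KO replicate 2 the least. Both calls depend on which libraries enter the fit. They held without KO replicate 1 or KO replicate 2, and were lost without WT replicate 1, 2 or 3 or KO replicate 3, where the adjusted p of C4b was 0.205, 0.152, 0.162 and 0.173. The C4b difference itself stayed between -2.56 and -2.13 with any 1 library left out. Both calls were also lost when genes under the filter were tested too (adjusted p = 0.172 for each).

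The division of reads between the 2 C4 genes decides how far they count as separate measurements, so their transcripts were compared. In the GENCODE M21 models C4b-201 (5379 bases) and C4a-201 (5357 bases), 96.2% of 5357 aligned bases were identical, with 206 substitutions. The longest identical run was 433 bases. Of all 50-base words of the C4a transcript, 35.3% also occur in that of C4b. Read length was not stated in what was used here. The stretch shown is the 90-base window of the C4b coding sequence with the most substitutions, 14, marked in capitals. It lies in exon 21 of 41 of C4b (chr17:34735430-34735519, mm10, minus strand) and in exon 21 of 42 of C4a (chr17:34816086-34816175, minus strand), written 5′ to 3′. Reads from here can be told apart, and reads from the identical runs cannot.
C4b: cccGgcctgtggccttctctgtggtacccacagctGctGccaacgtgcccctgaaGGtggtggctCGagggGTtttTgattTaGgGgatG
C4a: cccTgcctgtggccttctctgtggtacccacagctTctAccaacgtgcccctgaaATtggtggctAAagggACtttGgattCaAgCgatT

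The ratio of C4b to C4a was nearly the same in every library, at 6.21, 6.30 and 6.65 across WT and 6.35, 6.21 and 6.36 in KO. The log2 difference of the ratio was -0.02, less than the spread between libraries (exact two-sided permutation test over 20 assignments, p = 0.9, adjusted p = 0.9 over 4 ratios). How shared reads were divided between the 2 genes is not recorded in the sources used here, so the pair is taken as 1 signal. Summed to 1 locus before the fit, C4 was 337 ± 10.4 FPKM across WT and 69.9 ± 23.9 in KO (a log2 difference of -2.30, SE 0.25, adjusted p = 0.0474).

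C4 was compared library by library with C2 and Cfb of the C3-cleaving enzymes and with C3, their substrate. C2, which joins C4 in the classical and lectin enzyme, was 17.2, 17.1 and 19.2 FPKM across WT and 23.96, 8.81 and 17.2 in KO. The KO values spread on both sides of the WT values, and the log2 difference was -0.19 (95% interval -0.98 to 0.59, adjusted p = 0.796). It was 0.18 without KO replicate 2. Cfb, which encodes factor B of the alternative enzyme, was 423, 424 and 362 FPKM across WT and 386, 220 and 280 in KO. The first KO library was inside the WT range and the other 2 were below it (log2 difference -0.48, interval -1.07 to 0.11, adjusted p = 0.387). Without KO replicate 2 it was -0.29.

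C3, the substrate that all routes cleave, was 4404, 3666 and 3734 FPKM across WT and 3437, 2765 and 3096 in KO. Every KO library lay below every WT library, by a small margin, and the mean in KO was 78.8% of that in WT. The log2 difference was -0.34 (interval -0.86 to 0.17, adjusted p = 0.462) and did not pass. C3 ranked between 14 and 23 by level among all loci in each library and made up 37.0% to 43.4% of the summed FPKM of the 35 genes.

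Against C2, Cfb and C3 alike, C4b was lower in every KO library than in every WT library. The C4b to C3 ratio was 0.0646, 0.0780 and 0.0812 across WT and 0.0244, 0.0164 and 0.0166 in KO, a log2 difference of -1.98. The C4b to C2 ratio was 16.6, 16.8 and 15.8 across WT and 3.51, 5.16 and 2.9997 in KO, a log2 difference of -2.11. The C4b to Cfb ratio was 0.673, 0.675 and 0.838 across WT and 0.217, 0.206 and 0.184 in KO, a log2 difference of -1.84. For all 3 ratios the two-sided exact permutation test gave p = 0.1, the smallest that 3 against 3 libraries allow, and 0.133 after adjustment over 4 ratios. The 3 KO ratios lay below the 3 WT ratios in each case, and a design of this size cannot reach 0.05. The fall of C4 was known beforehand, so these ratios give its size against each of these genes and add no support for it.

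**Figure D3:**
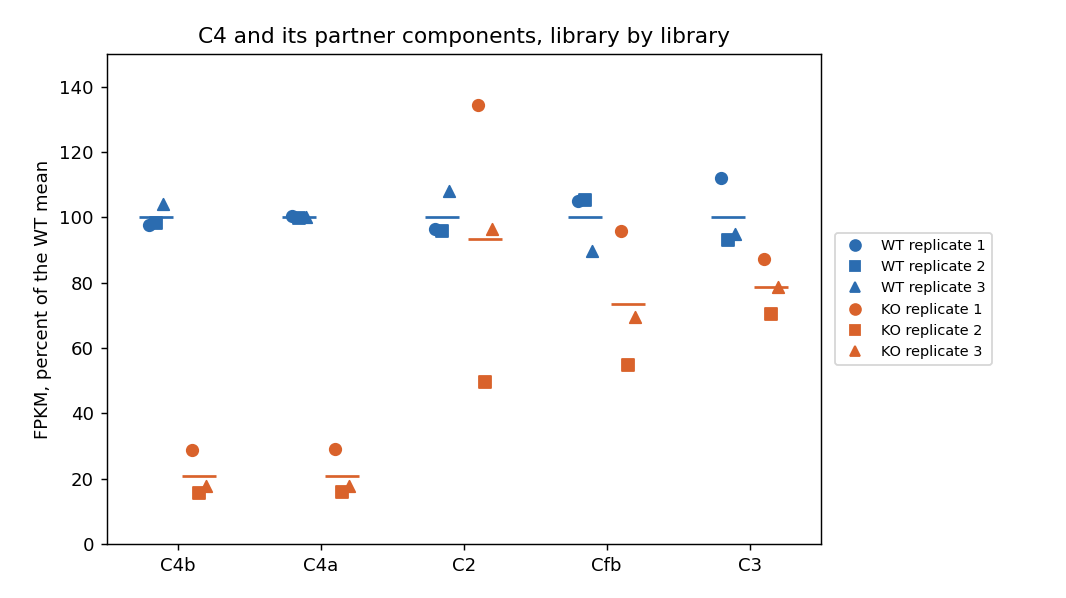
FPKM of C4b, C4a, C2, Cfb and C3 in each library as a percent of the WT mean of that gene, with WT in blue and KO in orange and a bar at each group mean. C4b and C4a sit near 20.7% and 20.9% in KO, while the KO mean of C3 is at 78.8% and the C2 values of KO spread around the WT values.

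C4b and C4a lie in the class III region of the mouse major histocompatibility complex, near C2 and Cfb, so the surrounding loci were read from the same fit. Within 250 kb of the start of C4b the table holds 32 loci, of which 21 were tested, and C4b and C4a were the 2 called. Cfb starts 128 kb and C2 134 kb from the start of C4b. Start here is the lowest coordinate of a locus. C4b is on the minus strand, so that coordinate is where its transcript ends. Among the other 19 tested loci, 12 had a log2 difference above 0 and 7 below, from -0.51 to 1.13, with a median of 0.11. Of all genes tested 30.3% were below 0, and their median was 0.15, so these loci were much like the rest. Ehmt2, which encodes the histone methyltransferase G9a, was 10.2 ± 1.03 FPKM across WT and 14.2 ± 1.33 in KO (a log2 difference of 0.44, SE 0.15, adjusted p = 0.279). Nelfe, which encodes a subunit of the negative elongation factor, had a log2 difference of 0.37 (SE 0.15, adjusted p = 0.311). They were the only other loci of this window with an unadjusted p under 0.05, and both were higher in KO and missed the threshold. Of all genes tested, 15.2% had such a p in limma, 11.2% higher and 3.99% lower.

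Cyp21a1, the steroid 21-hydroxylase gene, lies between C4b and C4a and has a pseudogene copy nearby, so its reads are uncertain. It was named after its values were seen, as was Stk19. It was 1.24, 1.20 and 0.725 FPKM across WT and 0.380, 0.05003 and 0.309 in KO. The KO libraries were all below the WT libraries, at a level under the filter, so it was not tested. Stk19, next to C4a on its other side, was 4.56, 2.70 and 2.69 across WT and 6.35, 4.13 and 4.13 in KO, overlapping between groups, with a log2 difference of 0.45 (adjusted p = 0.388).

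**Figure D4:**
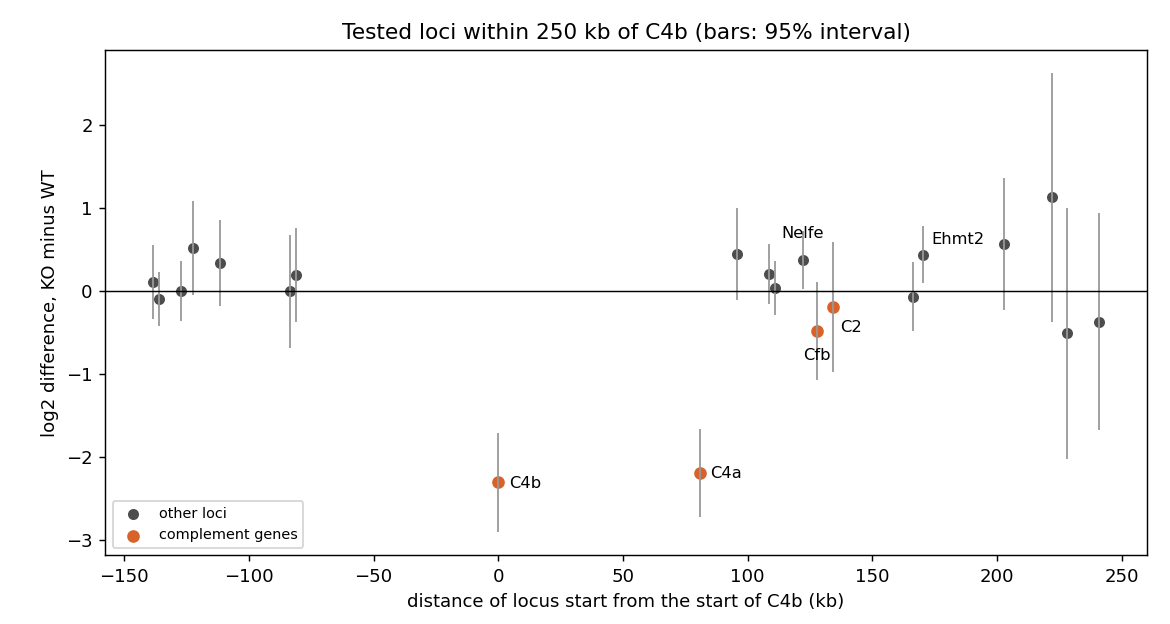
Log2 difference (KO minus WT) with its 95% interval for the 21 tested loci within 250 kb of C4b. The horizontal axis is the distance in kb of each locus start, its lowest coordinate, from that of C4b. Complement genes are orange. C4b and C4a lie below -2, and the other 19 loci lie between -0.51 and 1.13.

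Upstream of C4 in the classical route, none of the C1 proteases was called. C1s, the protease that cleaves C4 and C2, had the highest difference of the classical genes, 0.37 (interval -0.37 to 1.12, adjusted p = 0.574), with 76.9 ± 16.4 FPKM across WT and 103 ± 35.1 in KO. KO replicates 1 and 3 were above all WT libraries for C1s, at 127 and 119 FPKM, and KO replicate 2 was at 63.0. Without KO replicate 2 the C1s difference was 0.69 (SE 0.22, limma adjusted p = 0.174). C1ra and C1rb, which encode near-identical forms of the protease that activates C1s, were 49.5 ± 5.78 and 20.7 ± 3.17 FPKM across WT and 54.0 ± 13.4 and 21.5 ± 6.97 in KO. Their log2 differences were 0.10 and 0.01 as deposited and -0.05 and -0.14 after median-of-ratios rescaling, and 0.32 and 0.29 without KO replicate 2. Division of reads between them is uncertain. C1rl, a C1r-like protease gene, was 49.1 ± 5.57 and 47.6 ± 12.8, a log2 difference of -0.07, or -0.27 without KO replicate 2. Thus 2 of the 7 classical genes were called, both of them C4.

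None of the 6 lectin pathway genes was called. Mbl1, which encodes mannose-binding lectin A, was 232, 146 and 193 FPKM across WT and 137, 94.5 and 94.0 in KO. The groups did not overlap, although the highest KO value was close to the lowest WT value (log2 difference -0.80, SE 0.25, unadjusted p = 0.0155, adjusted p = 0.262 in limma). Mbl2, which encodes mannose-binding lectin C, was 185, 152 and 187 FPKM across WT and 356, 125 and 465 in KO. KO replicates 1 and 3 lay well above the WT range and KO replicate 2 below it, and the log2 difference was 0.66 (SE 0.47, adjusted p = 0.517). Without KO replicate 2 the difference was 1.22 (adjusted p = 0.0469), which passes the threshold, and over all alternatives the adjusted p ran from 0.0469 to 0.864. The ratio of Mbl1 to Mbl2 was 1.25, 0.965 and 1.04 across WT and 0.386, 0.756 and 0.202 in KO, lower in every KO library. This ratio was formed after the values were seen and was not tested.

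Colec11, which encodes collectin-11, was 15.8, 13.6 and 18.2 FPKM across WT and 8.93, 12.1 and 11.4 in KO. Its KO values all lay below its WT values (log2 difference -0.52, SE 0.18, unadjusted p = 0.0228, adjusted p = 0.285 in limma). Fcna, which encodes ficolin-A, overlapped between groups, at 12.8 ± 2.42 and 14.002 ± 3.36 FPKM (log2 difference 0.11, or 0.31 without KO replicate 2). Masp1 and Masp2, the proteases that ride on these lectins, were 33.1 ± 2.82 and 92.8 ± 25.04 FPKM across WT and 37.7 ± 9.68 and 102 ± 13.8 in KO. Their log2 differences were 0.15 and 0.16, or -0.0052 and 0.27 without KO replicate 2. The Masp2 locus overlaps that of Tardbp, so its reads are uncertain.

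Of the other alternative pathway genes, Cfp, which encodes properdin, a stabiliser of the alternative enzyme, was 9.13 ± 0.651 FPKM across WT and 10.3 ± 1.30 in KO (log2 difference 0.16, and -0.02 after quantile normalization). Properdin is known mainly from leukocytes. Cfd, which encodes the protease factor D and is known mainly from fat tissue, was 0.246 FPKM in WT replicate 1 and listed at the floor in the other 5 libraries.

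None of the 6 terminal genes tested was called. C8 is built from alpha, beta and gamma chains. C8a, the alpha chain, was 168, 193 and 195 FPKM across WT and 130, 46.6 and 126 in KO. All KO libraries lay below WT, with KO replicate 2 far below the other 2 (log2 difference -1.004, SE 0.40, unadjusted p = 0.0415, adjusted p = 0.315 in limma). Without KO replicate 2 it was -0.52. C8b, the beta chain, whose gene is the neighbour of C8a on chromosome 4, was 77.1, 68.5 and 87.4 FPKM across WT and 97.2, 90.0 and 92.8 in KO. Here all KO libraries lay above WT, by a small margin (log2 difference 0.27, SE 0.16, adjusted p = 0.452). The C8a to C8b ratio, formed after the values were seen and not tested, was 2.18, 2.82 and 2.23 across WT and 1.34, 0.518 and 1.36 in KO. C8g, the gamma chain, was 80.9, 102 and 100.4 FPKM across WT and 80.8, 63.1 and 70.0 in KO, with the highest KO value just under the lowest WT value (log2 difference -0.40, SE 0.18, adjusted p = 0.348). The C8g locus overlaps that of Fbxw5.

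Hc, which encodes C5, the source of the anaphylatoxin C5a and the start of the pore, was 231, 240 and 293 FPKM across WT and 283, 149 and 251 in KO. The groups overlapped, and the log2 difference was -0.21 (interval -0.87 to 0.46), or 0.07 without KO replicate 2. C9, the pore-forming subunit, was 99.8 ± 27.6 and 77.5 ± 40.6 FPKM, with KO replicate 2 lowest at 31.3. Its log2 difference was -0.51 with all libraries and 0.04 without KO replicate 2. C6, which joins the complex after C5, was low, at 4.40 ± 0.881 and 3.40 ± 2.29 FPKM (log2 difference -0.41, or -0.05 without KO replicate 2). C7, the next to join, had a mean of 0.457 FPKM across WT and 0.330 in KO and was not tested.

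Soluble regulators are abundant products of this tissue and none of the 8 regulators tested was called. Serping1, the C1 inhibitor, which blocks the C1 and MASP proteases, was 488, 425 and 465 FPKM across WT and 421, 317 and 378 in KO. The highest KO value lay just under the lowest WT value (log2 difference -0.31, SE 0.19, adjusted p = 0.458, and -0.20 without KO replicate 2). C4bp, the binding protein that removes C4 fragments, was 407, 377 and 387 FPKM across WT and 449, 190 and 292 in KO, on both sides of the WT range. Its log2 difference of -0.42 was -0.11 without KO replicate 2. Cfi, the protease that cleaves C3 and C4 fragments, was 280 ± 12.6 and 262 ± 69.6 FPKM, with a log2 difference of -0.13, or 0.07 without KO replicate 2.

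Vtn, vitronectin, and Clu, clusterin, which hold back the terminal complex, were the most abundant regulators. Vtn was 1666, 1495 and 1332 FPKM across WT and 1456, 1200 and 1534 in KO, with overlapping groups and a log2 difference of -0.10, or 0.0029 without KO replicate 2. Clu was 590 ± 58.8 and 584 ± 169, a log2 difference of -0.06, or 0.21 without KO replicate 2. Cfhr2, which lies in a cluster of close relatives, so that its reads are uncertain, was 182 ± 28.05 and 138 ± 74.5 FPKM, with 60.01 in KO replicate 2. Its log2 difference was -0.56 with all libraries and -0.05 without that one.

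The membrane regulators were low. Cd55, which speeds the decay of the C3-cleaving enzymes, was 5.61 ± 0.652 and 5.96 ± 1.66 FPKM, and Cd59a, which blocks C9, was 12.9 ± 5.72 and 9.47 ± 4.95. Their log2 differences were 0.05 and -0.41, or -0.13 and -0.77 without KO replicate 2. Cd59a has a near copy, Cd59b, so its reads are uncertain. Cd46 was listed at the floor in WT replicate 1 and KO replicate 1 and was at most 0.512 FPKM elsewhere. The receptor genes C3ar1 and C5ar1, for the C3a and C5a peptides, were low. C3ar1 had means of 0.429 FPKM in WT livers and 0.518 in KO livers. C5ar1 was 0.583, 0.681 and 0.676 FPKM across WT and 0.609, 1.14 and 0.233 in KO. Both overlapped between groups. Cfd, C7, Cd46, C3ar1 and C5ar1 are the 5 genes under the filter.

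Summed FPKM over the 35 genes was 10275, 9121 and 9262 across WT and 9153, 6367 and 8359 in KO, a share of 2.14%, 2.23% and 2.20% of all FPKM across WT and 2.13%, 1.29% and 1.87% in KO. Leaving out C3, C4a and C4b, the sum was 5541, 5123 and 5180 across WT and 5619, 3549 and 5203 in KO. KO replicate 1 then lay just above the WT range, KO replicate 3 within it and KO replicate 2 far below it. That sum also leaves out C3, which was itself lower in every KO library than in every WT library. C3 was 4404, 3666 and 3734 FPKM across WT and 3437, 2765 and 3096 in KO. The sum therefore does not cover all of the pathway outside C4.

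Complement genes outside the 35 were taken from a separate list of 29 symbols, of which 25 were found and 16 tested. None was called in either direction. At an unadjusted p under 0.05 limma gave 1 higher and 3 lower, beside 11.2% higher and 3.99% lower of all genes. Colec10 and Apcs were among the 3 lower ones. Colec10, the partner of collectin-11, was 7.44 ± 1.86 FPKM across WT and 2.73 ± 1.57 in KO (a log2 difference of -1.24, SE 0.32, adjusted p = 0.208). Apcs, serum amyloid P, a pentraxin, was 1527 ± 321 and 739 ± 424. Cr1l, which encodes the mouse regulator Crry, was the higher one, at 13.5 ± 1.46 and 19.4 ± 1.57 FPKM (log2 difference 0.49, SE 0.15, adjusted p = 0.245). For Colec10, Apcs and Cr1l the groups did not overlap, as for 22.1% of all genes tested, 5.44% lower and 16.7% higher.

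C1q, the recognition part of C1, comes mainly from macrophages and not from hepatocytes, and its 3 genes were named for that source and not for their p. C1qa, C1qb and C1qc were 20.01 ± 4.67, 23.2 ± 3.96 and 22.2 ± 9.76 FPKM across WT and 22.8 ± 4.22, 22.98 ± 6.45 and 26.3 ± 6.68 in KO, with log2 differences from -0.04 to 0.30. The summed level of the 11 Kupffer cell and macrophage markers found was 116 to 178 FPKM across WT and 132 to 221 in KO, and none of the 11 was called. Marco, a scavenger receptor among them, had a log2 difference of 1.10 (adjusted p = 0.264). Summed levels also overlapped for monocytes and neutrophils (23.3 to 49.2 in WT, 24.4 to 40.6 in KO), sinusoidal endothelium (44.0 to 66.8, 44.1 to 68.2), stellate cells (105 to 117, 83.4 to 134) and cholangiocytes (12.1 to 21.1, 12.5 to 28.97). The hepatocyte markers summed to 35525 to 41702 FPKM across WT and 32096 to 41491 in KO, lowest in KO replicate 2. The 8 T, NK and B cell markers summed to at most 1.34 FPKM. Such sums are set mostly by the most abundant markers, as Dcn for stellate cells and Spp1 for cholangiocytes. Single markers went both ways. The stellate markers Reln and Lrat had log2 differences of 0.80 and -0.52 (adjusted p = 0.179 and 0.354 in limma). The cholangiocyte marker Sox9, under the filter, was 1.17 ± 0.585 FPKM across WT and 0.225 ± 0.155 in KO, and Spp1 had a log2 difference of 0.22. Any part of these levels in the complement differences was not tested.

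C3, C4 and C5 belong to a wider protein family that includes the alpha-2-macroglobulins, most of which carry the same thioester. Of 4 such genes tested none was called, and 2 had an unadjusted p under 0.05 in limma, both lower in KO. Of all genes tested, 3.99% were lower and 11.2% higher at such a p. A2m was 5.98, 3.73 and 2.003 FPKM across WT and 0.439 and 0.0950 in KO replicates 1 and 3, and it was listed at the floor in KO replicate 2 (log2 difference -1.99, SE 0.33, adjusted p = 0.128). Pzp, the abundant mouse plasma macroglobulin, was 2510 ± 157 and 1493 ± 500 (log2 difference -0.80, SE 0.29, adjusted p = 0.294). Mug1 and Mug2, near relatives whose reads may be shared, had log2 differences of -0.44 and 0.69.

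Of 21 genes for signals known to act on hepatic complement transcription, 21 were tested and none was called. At an unadjusted p under 0.05 limma gave 1 higher and 1 lower, beside 11.2% higher and 3.99% lower of all genes tested. Tnfrsf1a, the TNF receptor gene, was lower, at 50.8 ± 4.15 and 30.2 ± 4.19 FPKM (log2 difference -0.74, SE 0.17, adjusted p = 0.179). Il6ra, the IL-6 receptor, and Ifngr1, an interferon gamma receptor chain, had log2 differences of -0.73 and -0.47 (adjusted p = 0.342 and 0.349).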

How the data were processed

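Values are FPKM per gene locus and library, as the authors deposited them, with columns named as FPKM per the file headers. TopHat, edgeR, mm9 and mm10 stand in the submitters' processing notes, with no role given for any. Positions overlapped RefSeq GRCm38.p6, the same assembly as mm10, for 99.4% of 21328 matched symbols, and are given counted from 1. For strand, read numbers and the table's filter, nothing is given in the sources used here.

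Of 23847 loci, 312 marked LOWDATA were left out. Values of 0.001 were read as 0. Loci with a mean of at least 1 FPKM were fitted as log2(FPKM + 1), which understates changes of low genes, in limma 3.58.1 (R 4.3.3, mean-variance trend, genotype only), with Benjamini-Hochberg adjustment. In simulated data with these genes, 84.0% of genes changed by 2 on the log2 scale and 44.0% of those changed by 1 were called. The simulated noise was independent between genes, with no deviation shared across the genes of 1 library. These shares may therefore not hold for the 6 libraries here, where KO replicate 2 stood apart. Ratios were tested by exact permutation over libraries.

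Alternatives changed the scaling, pseudocount, filter, trend, replicate block, C4 as 1 locus, and each library in turn. The gene list and the other lists were chosen with earlier results of these data known, the fall of C4 included. All 35 genes are named. Values of every library are given for genes with an unadjusted p under 0.05 or groups that do not overlap, for C3, C2, Cfb and Hc, and for the most abundant gene of a role. From other lists up to 4 genes with the smallest p are named, and near C4 those with an unadjusted p under 0.05. Some genes of these lists are not reported here.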

Additional observations from a re-analysis of the deposited data

How the results depend on the processing

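The direction of C4b and C4a held under every alternative, from -2.56 to -2.13 and from -2.42 to -2.03, with adjusted p from 0.0184 to 0.205 and from 0.0183 to 0.181. With no filter on low values limma called 0 genes and 0 complement genes (1484 higher and 627 lower at an unadjusted p under 0.05), and more genes are tested there. C4a and C4b summed counted as 1 call by construction. With 1 library left out, the number of complement genes called ranged from 0 to 3 and that of all genes from 0 to 242, where 0 came without WT replicate 1 (658 higher and 282 lower at an unadjusted p under 0.05) and 242 (197 higher and 45 lower) without KO replicate 2. All calls were 2 higher and 11 lower in the reported fit, 0 and 13 with median-of-ratios rescaling, and 0 and 14 after quantile normalization, so the balance of calls changes with the setting. The median of all genes moved from 0.15 to 0.02 and -0.0040. The cause of these changes was not tested.

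Genes that were not called and changed sign were C1ra (-0.0498), C1rb (-0.14), Fcna (-0.0318), Cd55 (-0.0774) after median-of-ratios rescaling, and C1ra (-0.0474), C1rb (-0.15), Fcna (-0.0426), Cfp (-0.0186), Cd55 (-0.12) after quantile normalization. With 1 library left out, the ranges that crossed 0 were C1ra (-0.0301 to 0.32), C1rb (-0.18 to 0.29), C1rl (-0.27 to 0.0385), C2 (-0.49 to 0.18), Hc (-0.39 to 0.0741), C9 (-0.83 to 0.0412), Cfi (-0.32 to 0.0664), Clu (-0.22 to 0.21), Vtn (-0.18 to 0.00289), Cd55 (-0.13 to 0.21), Masp1 (-0.00523 to 0.37), Masp2 (-0.00391 to 0.36), Fcna (-0.0269 to 0.31) and the C4b to C4a ratio (-0.0377 to 0.0119).

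Same-numbered WT and KO libraries did not all deviate together (r = -0.08, 0.16 and 0.16). The labels do not say that they are paired, and these few correlations cannot settle it. With the replicate block 47 genes were called, 10 higher and 37 lower, and the complement calls were the same 2. Not every library correlated best with its own number. For the ratios (-0.02 for C4b to C4a, -1.98 for C3, -2.11 for C2, -1.84 for Cfb) the block cannot move the difference by construction, and an exact sign-flip test over 3 pairs cannot go below p = 0.25.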
